A study of Mus musculus with 31 samples.

Results

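The 10 genes described here, Adgre1, Timd4, Cd5l, Csf1r, Clec4f, Vsig4, Marco, C1qa, C1qb and C1qc, mark Kupffer cells, the resident macrophages of the liver. They were chosen by name as markers of that cell type and each had a single probe set on the array, so they are 10 of the 22180 genes with a named probe set. Kupffer cells sit in the sinusoids, where they take up bacteria, aged blood cells and dying cells that reach the liver with portal blood. Their survival rests on CSF1 receptor signalling, and their receptors recognise phosphatidylserine, complement fragments and bacterial surfaces. They are also a source of C1q, the recognition molecule of the classical complement pathway.

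The livers of 31 male C57BL/6 mice, 3 to 4 months old, were profiled whole with Affymetrix arrays that probe whole transcripts, 1 array per animal. The 4 groups were 7 mice sampled at the end of a 16 h fast that followed 2 earlier fasts, 8 mice sampled fed after 2 earlier fasts, 8 mice sampled at the end of a 16 h fast with 0 earlier fasts, and 8 mice sampled fed with 0 earlier fasts. The earlier fasts lasted 16 h each, fell within 8 weeks, and were each followed by a return to normal growth. All livers were collected in the morning, and the design asks whether earlier fasts alter the liver's response to a later one. The labels do not name litters, cages or days, so p-values measure the spread between these animals. Values are RMA signals on a log2 scale, and the number of arrays limits their precision. Array medians lay between 2.01 and 2.07, and arrays correlated with each other at r = 0.965 to 0.982. A gene is said to rise or fall where the p of limma's moderated test, adjusted by Benjamini-Hochberg across the 22180 genes, was under 0.05. One array stood apart for these genes, replicate 5 of the fed mice with 2 earlier fasts, and the values it moves most are also given without it. Signals of different probe sets are not on a common scale, so no level is set against that of another gene.

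Promoter sequence was taken for 7 of the 10 genes from a RefSeq table of GRCm38.p6, as the 250 bases before and 50 bases after the annotated start: Timd4, Cd5l, Clec4f, Vsig4, Marco, C1qb and C1qc. Adgre1 and C1qa had no promoter there, and Csf1r was left out by a rule on its chromosome. The sequences of C1qb and C1qc are shown because both genes belong to a run of neighbours on chromosome 4, together with C1qa, and code for chains of the same protein. Vsig4 and Marco are shown as the receptor genes that were most unlike in their values below. Capitals mark GAGGAA, the core bound by the macrophage transcription factor PU.1, or its reverse complement TTCCTC, and all 4 genes lie on the minus strand, at chr4:136886151-136886450 for C1qb, chr4:136892865-136893164 for C1qc, chrX:96293389-96293688 for Vsig4 and chr1:120504975-120505274 for Marco.
C1qb: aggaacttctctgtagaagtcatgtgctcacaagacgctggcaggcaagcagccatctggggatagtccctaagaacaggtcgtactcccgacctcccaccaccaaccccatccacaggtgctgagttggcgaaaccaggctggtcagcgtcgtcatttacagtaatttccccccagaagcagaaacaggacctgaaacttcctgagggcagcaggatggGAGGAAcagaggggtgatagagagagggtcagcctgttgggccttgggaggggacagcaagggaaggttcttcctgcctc
C1qc: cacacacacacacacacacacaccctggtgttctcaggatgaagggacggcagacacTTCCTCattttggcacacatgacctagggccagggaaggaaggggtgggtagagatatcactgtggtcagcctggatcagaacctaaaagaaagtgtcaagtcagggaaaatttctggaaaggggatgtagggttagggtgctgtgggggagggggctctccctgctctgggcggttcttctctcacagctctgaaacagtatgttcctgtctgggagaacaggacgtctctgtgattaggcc
Vsig4: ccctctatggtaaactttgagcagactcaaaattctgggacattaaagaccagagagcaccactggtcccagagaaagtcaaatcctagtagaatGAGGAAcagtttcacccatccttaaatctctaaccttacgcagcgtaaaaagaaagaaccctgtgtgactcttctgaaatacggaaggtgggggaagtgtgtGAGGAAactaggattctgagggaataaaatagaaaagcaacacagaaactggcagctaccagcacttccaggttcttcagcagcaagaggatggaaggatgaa
Marco: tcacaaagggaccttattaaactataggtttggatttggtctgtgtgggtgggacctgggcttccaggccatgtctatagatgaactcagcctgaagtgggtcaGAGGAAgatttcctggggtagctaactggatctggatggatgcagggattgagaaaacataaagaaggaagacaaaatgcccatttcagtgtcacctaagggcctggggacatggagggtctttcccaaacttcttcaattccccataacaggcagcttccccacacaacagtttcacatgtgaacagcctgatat
Searched on both strands, GAGGAA occurred in 5 of the 7 promoters, against 28.3% of all 32851 promoters of the same length. AGGTCA, a core element bound by nuclear receptors, occurred in 3 of 7 (16.3% of all promoters), and TGCTGA, a core element bound by MAF factors, in 5 of 7 (19.5% of all promoters). No match overlapped another in these 7 windows. Marco held 1 match of GAGGAA and none of the other motifs, and Vsig4 held 2. These matches describe letters in the windows only.

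At the end of the final fast, 9 of the 10 Kupffer cell genes were lower than in fed livers when both histories were averaged, and Marco was the exception. The 9 differences lay between -0.76 for Adgre1 and -0.32 for C1qc on the log2 scale, which is 1.70-fold and 1.25-fold lower. Over all genes, 19.1% were called in that comparison and 9.36% were called lower. The median difference was -0.57 over the 10 genes and -0.00 over all genes. In livers sampled whole, fewer Kupffer cells and less of these transcripts per cell cannot be told apart.

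Among genes of cell surface identity, Adgre1 codes for F4/80, the antigen by which mouse macrophages are commonly recognised. Its lowest, median and highest signals after 2 earlier fasts were 3.31, 4.31 and 4.50 in fasted mice, against 4.01, 4.76 and 5.66 in fed mice. With 0 earlier fasts they were 3.52, 4.06 and 4.85 in fasted mice, against 4.36, 4.99 and 5.49 in fed mice. All 7 and all 8 fasted values lay below the fed median of their history, and 2 of 7 and 6 of 8 lay below every fed value. Adgre1 fell by 0.76 over both histories (SE 0.15, adjusted p = 0.000187, limma). Clec4f codes for a C-type lectin that in mice is made almost only by Kupffer cells. Its lowest, median and highest signals were 5.74, 6.41 and 6.62 in fasted mice and 6.19, 6.86 and 7.28 in fed mice with 2 earlier fasts, and 7 of the 8 fed values there lay above every fasted value. They were 5.60, 6.32 and 6.81 in fasted mice and 6.29, 6.97 and 7.49 in fed mice with 0 earlier fasts, where 4 of 8 did. Clec4f fell by 0.60 (SE 0.12, adjusted p = 0.00025). Csf1r codes for the receptor of CSF1 and IL-34, on which macrophages depend. It ran at 5.09, 5.67 and 6.19 in the 15 fasted mice of both histories and 5.35, 6.19 and 6.70 in the 16 fed mice (lowest, median and highest). The ranges overlapped, and 2 of 7 fasted values with 2 earlier fasts and 4 of 8 with 0 lay below every fed value of their history. Csf1r fell by 0.51 (SE 0.12, adjusted p = 0.00125).

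**Figure D1:**
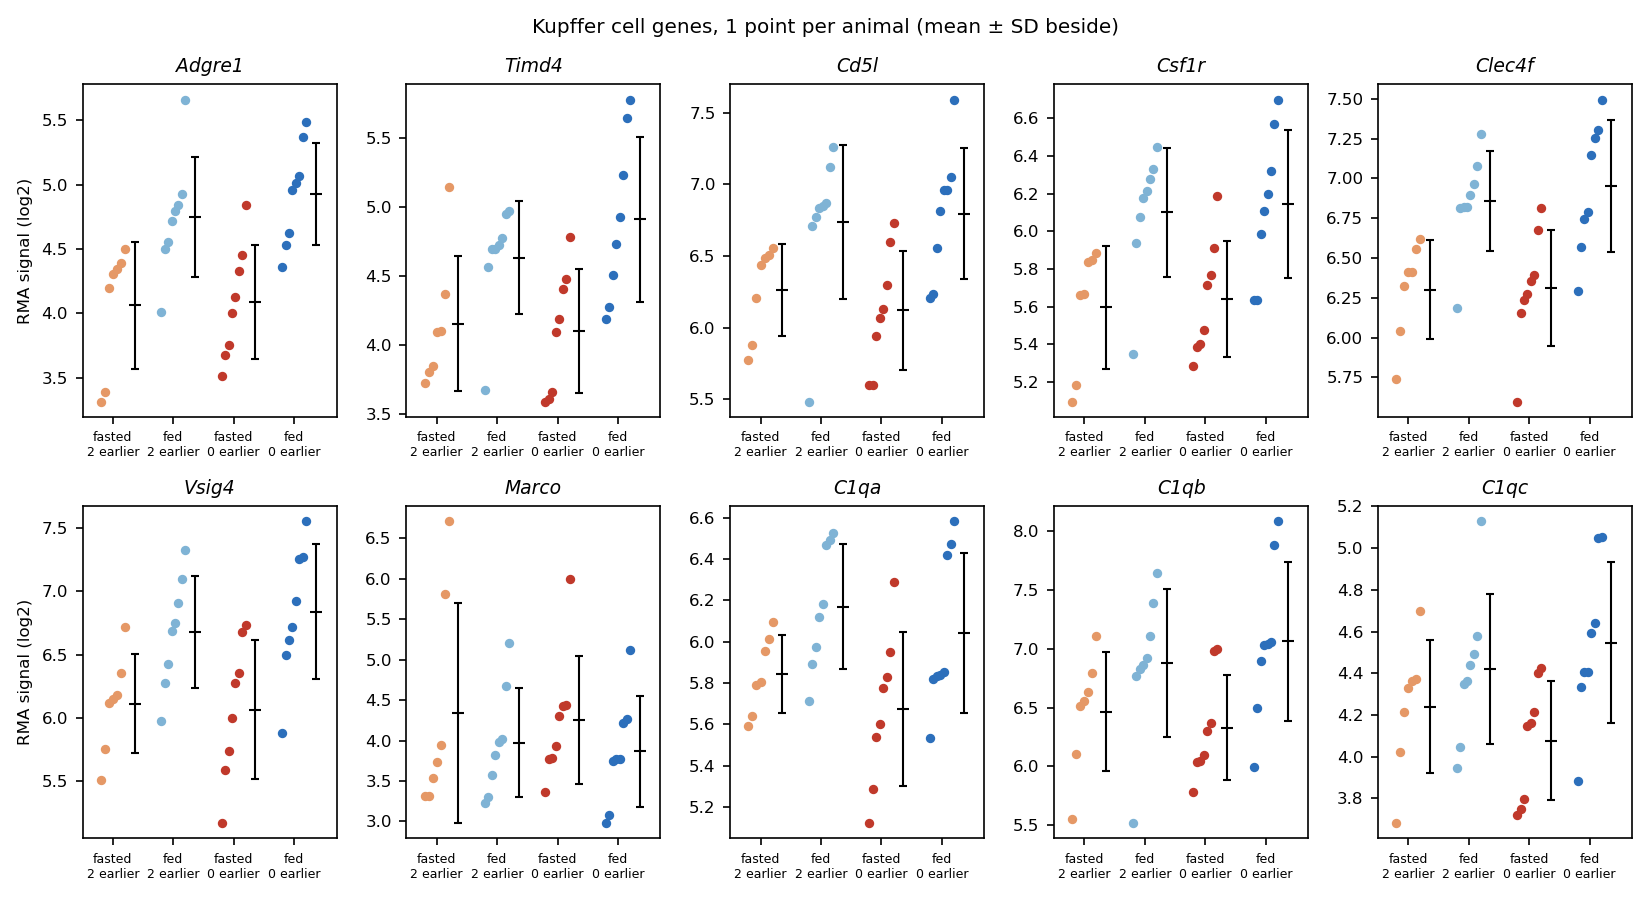
RMA signal (log2, vertical axis) of each Kupffer cell gene in every animal, by group, with the group mean ± SD beside the points (7, 8, 8 and 8 animals from left to right, fasted left of fed within each history; vertical axes differ between genes). The fasted points sit lower than the fed points for every gene except Marco, with overlap, and a single fed animal with 2 earlier fasts lies far below its group for Cd5l and Timd4.

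Of the receptors that recognise dying cells, complement and microbes, Timd4 codes for TIM-4, which binds phosphatidylserine on dying cells. After 2 earlier fasts it ran at 3.73, 4.09 and 5.14 in fasted mice (lowest, median and highest), against 3.68, 4.71 and 4.98 in fed mice. The highest of those 7 fasted values exceeded every fed value of that history. With 0 earlier fasts it ran at 3.59, 4.14 and 4.79 in fasted mice and 4.19, 4.83 and 5.78 in fed mice, and 4 of 8 fasted values lay below every fed value. Timd4 fell by 0.64 over both histories (SE 0.16, adjusted p = 0.0035). Vsig4 codes for CRIg, a receptor for complement C3 fragments that captures opsonised particles from blood. Its lowest, median and highest signals were 5.51, 6.15 and 6.72 in fasted mice and 5.98, 6.72 and 7.33 in fed mice with 2 earlier fasts. They were 5.17, 6.14 and 6.74 in fasted mice and 5.88, 6.82 and 7.56 in fed mice with 0 earlier fasts, and in both histories 4 of 8 fed values lay above every fasted value. Vsig4 fell by 0.67 (SE 0.16, adjusted p = 0.00209). Cd5l, a protein secreted by tissue macrophages and a target of the sterol-sensing LXR receptors, ran at 5.60, 6.20 and 6.73 in the 15 fasted mice and 5.48, 6.84 and 7.59 in the 16 fed mice. All 15 fasted values lay below the fed median of their own history. Cd5l fell by 0.58 (SE 0.15, adjusted p = 0.00398).

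The C1q genes fell too. C1qa, C1qb and C1qc code for the A, B and C chains that assemble into C1q, which starts the classical complement cascade. C1qb ran at 5.56, 6.56 and 7.11 in fasted mice and 5.52, 6.89 and 7.64 in fed mice with 2 earlier fasts (lowest, median and highest). It ran at 5.78, 6.20 and 6.99 in fasted mice and 6.00, 7.03 and 8.08 in fed mice with 0, and all 8 of these fasted values lay below the fed median. It fell by 0.57 over both histories (SE 0.19, adjusted p = 0.0284), while C1qa fell by 0.35 (SE 0.11, adjusted p = 0.0213) and C1qc by 0.32 (SE 0.11, adjusted p = 0.0439). C1qa averaged 5.75 ± 0.30 in fasted mice and 6.11 ± 0.34 in fed mice, and C1qc averaged 4.15 ± 0.30 in fasted mice and 4.48 ± 0.37 in fed mice (SD, n = 15 and 16). The fold differences were 1.49 for C1qb, 1.27 for C1qa and 1.25 for C1qc, all lower in fasted mice, and whether the 3 chains differ from each other was not tested. The C1qc call was lost when any of 16 arrays was left out, with adjusted p up to 0.091. These were fasted replicates 2, 3 and 5 and fed replicates 2, 3, 4, 7 and 8 with 2 earlier fasts, and fasted replicates 1, 3, 5 and 8 and fed replicates 1, 2, 3 and 6 with 0 earlier fasts. The C1qb call was lost without fasted replicate 2 or fed replicate 7 of the history with 2 earlier fasts, or when fed replicate 1 or 2 with 0 was left out, with adjusted p up to 0.0599.

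Marco, the gene of a class A scavenger receptor that binds bacteria and is found on only some tissue macrophages, went apart from the other genes. After 2 earlier fasts it ran at 3.31, 3.73 and 6.71 in fasted mice (lowest, median and highest), against 3.23, 3.90 and 5.21 in fed mice. With 0 earlier fasts it ran at 3.37, 4.12 and 5.99 in fasted mice, against 2.98, 3.77 and 5.12 in fed mice. The fasted groups held 3 animals with high Marco, replicates 4 and 7 with 2 earlier fasts (5.82 and 6.71) and replicate 7 with 0 earlier fasts (5.99), and all other fasted animals lay at 4.44 or lower. The difference over both histories was 0.37 (SE 0.30, 95% interval -0.23 to 0.98, adjusted p = 0.474), and the interval held values on both sides of 0. Without fasted replicate 7 with 2 earlier fasts the difference was 0.18, without fasted replicate 4 of that group 0.25, and without fasted replicate 7 with 0 earlier fasts 0.25. The difference after 2 earlier fasts alone was 0.36, and it was -0.03 without fasted replicate 7.

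With the histories taken apart, 3 of the 10 genes fell in mice with 2 earlier fasts, where 11.6% of all genes were called and 5.52% were called lower. In mice with 0 earlier fasts 7 of the 10 fell, where 12.5% of all genes were called and 6.23% were called lower. Adgre1, Csf1r and Clec4f passed in both histories. Adgre1 fell by 0.69 after 2 earlier fasts (adjusted p = 0.0313) and by 0.84 with 0 (adjusted p = 0.00446). Clec4f fell by 0.55 after 2 earlier fasts (adjusted p = 0.0292) and by 0.64 with 0 (adjusted p = 0.00714). Csf1r fell by 0.51 after 2 earlier fasts (adjusted p = 0.043) and by 0.50 with 0 (adjusted p = 0.0333). For Timd4, Cd5l, Vsig4 and C1qc the differences after 2 earlier fasts were -0.48, -0.48, -0.57 and -0.18, with adjusted p of 0.233, 0.173, 0.126 and 0.617. These 4 genes fell with 0 earlier fasts, by 0.81, 0.67, 0.77 and 0.47 (adjusted p = 0.0132, 0.0244, 0.0171 and 0.0487). C1qa and C1qb passed in neither history alone. Their differences were -0.33 and -0.41 after 2 earlier fasts (adjusted p = 0.222 and 0.426) and -0.37 and -0.73 with 0 (adjusted p = 0.128 and 0.0664). The median difference over the 10 genes was -0.48 after 2 earlier fasts and -0.66 with 0, against -0.00 over all genes in both.

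**Figure D2:**
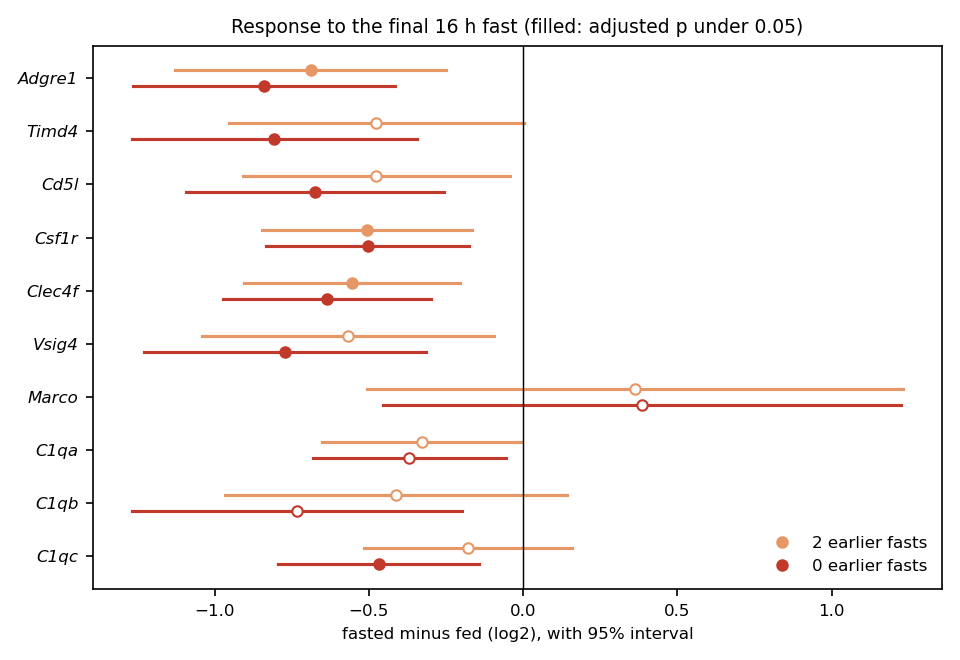
Difference between fasted and fed mice (log2, horizontal axis) of each Kupffer cell gene with its 95% interval, with 2 earlier fasts (orange, n = 7 and 8) and with 0 earlier fasts (dark red, n = 8 and 8); filled points passed at an adjusted p under 0.05. The differences of 9 genes lie left of 0 in both histories, and Marco lies right of 0 with the widest intervals.

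These counts turned on single arrays. After 2 earlier fasts 0 fell without fasted replicate 2, fasted replicate 5 or fed replicate 7, 1 without fed replicate 1 or 3, and 4 without fed replicate 5. The fourth was Cd5l, whose difference was -0.65 without that fed animal (adjusted p = 0.015). Of the genes called after 2 earlier fasts, Adgre1 lost its call without fasted replicate 2 or 5 or fed replicate 1 or 7 (adjusted p up to 0.097) and Clec4f without fasted replicate 2 or 5 or fed replicate 3 or 7 (adjusted p up to 0.0891). Csf1r lost it without fasted replicate 2, 3, 4 or 5 or fed replicate 1, 2, 3, 4, 7 or 8 (adjusted p up to 0.123). In mice with 0 earlier fasts 4 genes fell without fasted replicate 5, 3 without fasted replicate 8 and 4 without fed replicate 2, and 9 without fasted replicate 4. Of the genes called with 0 earlier fasts, Csf1r lost its call without fasted replicate 1, 5, 6 or 8 or fed replicate 1, 2, 3 or 8 (adjusted p up to 0.0887) and Cd5l without fasted replicate 5 or 8 or fed replicate 2 (adjusted p up to 0.0699). Vsig4 lost it without fasted replicate 8 (adjusted p = 0.0517), and C1qc without any of 22 of the 31 arrays, from all 4 groups (adjusted p up to 0.12). C1qa gained a call with 0 earlier fasts without fasted replicate 4 (adjusted p = 0.0392), and C1qb without fasted replicate 4 or 7 or fed replicate 4 or 7 of that history or fed replicate 5 of the other (adjusted p down to 0.0174). Over both histories, 7 to 9 of the 10 fell whichever array was left out.

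A direct comparison of histories called none of the 10 genes. Between mice with 2 and with 0 earlier fasts, limma called 0 members and 0% of all genes in the fed state, and 0 members passed at an unadjusted p under 0.05, against 5.61% of all genes. In the fasted state it called 0 members and 0% of all genes, with 0 members at an unadjusted p under 0.05, against 4.49% of all genes. For the interaction, the difference between the histories in the response to the final fast, it called 0 members and 0% of all genes, with 0 members at an unadjusted p under 0.05, against 4.61% of all genes. Members' differences between histories lay between -0.28 for Timd4 and 0.13 for C1qa in fed mice, and between -0.04 for Csf1r and 0.17 for C1qa in fasted mice. Timd4 averaged 4.63 ± 0.41 in fed mice with 2 earlier fasts and 4.91 ± 0.60 in fed mice with 0 (SD, n = 8 each), a difference of -0.28 (95% interval -0.74 to 0.18), and of -0.14 without replicate 5 of the fed mice with 2 earlier fasts. Leaving that array out, 6 of the 10 differences between fed groups were above 0, against 2 with it, and their median was 0.01, against -0.11 with it. The sign of the interaction, which is above 0 where the fall after 2 earlier fasts was smaller, depended on single arrays. It was above 0 for 8 of the 10 genes with all arrays, for 6 without fed replicate 5 with 2 earlier fasts, for 6 without fasted replicate 8 with 0 earlier fasts, and for 6 to 10 over the arrays left out in turn. The interaction was 0.33 for Timd4 (95% interval -0.33 to 1.00), 0.32 for C1qb (-0.45 to 1.09), 0.29 for C1qc (-0.18 to 0.76) and -0.00 for Csf1r (-0.47 to 0.47). Without fed replicate 5 with 2 earlier fasts it was 0.19 for Timd4, 0.13 for C1qb, 0.22 for C1qc, -0.11 for Csf1r and 0.02 for Cd5l, which had 0.20 with all arrays. Timd4 had 0.17 without fasted replicate 7 with 2 earlier fasts. For Timd4, Vsig4, Cd5l, C1qa, C1qb and C1qc the upper bound of the 95% interval exceeded the size of the gene's fall over both histories. The comparisons between histories share their arrays with those between fasted and fed mice.

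Among animals of one group, 9 of the 10 genes moved together. Correlations were taken on signals with the mean of each of the 4 groups removed, over 31 arrays, for all 45 pairs, with a permutation test within groups (100000 resamples, 2-sided) adjusted over the pairs. Of the 36 pairs without Marco, all 36 passed at an adjusted p under 0.05, with r of 0.64 to 0.92 and a median of 0.79, and rho of 0.61 to 0.91. The tightest pairs were Csf1r with C1qb (r = 0.92, rho = 0.91), Cd5l with C1qb (r = 0.91, rho = 0.89) and Clec4f with C1qb (r = 0.90, rho = 0.90), each with p = 1e-05, the smallest these resamples can give, and adjusted p = 2.05e-05. Without the 2 arrays farthest from the median of the first gene, r was 0.89, 0.86 and 0.90 for these pairs. The loosest of the 36 was Timd4 with C1qc (r = 0.64, rho = 0.61, p = 0.00057, adjusted p = 0.000712). Within the C1q genes, C1qb with C1qc gave r = 0.84, C1qa with C1qb 0.76 and C1qa with C1qc 0.75. The points share the RMA normalization across arrays. As a description, the median r of a member with the 22170 other genes lay between -0.01 and -0.00, and 0.104 to 0.501% of those genes passed r = 0.6 with a given member.

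**Figure D3:**
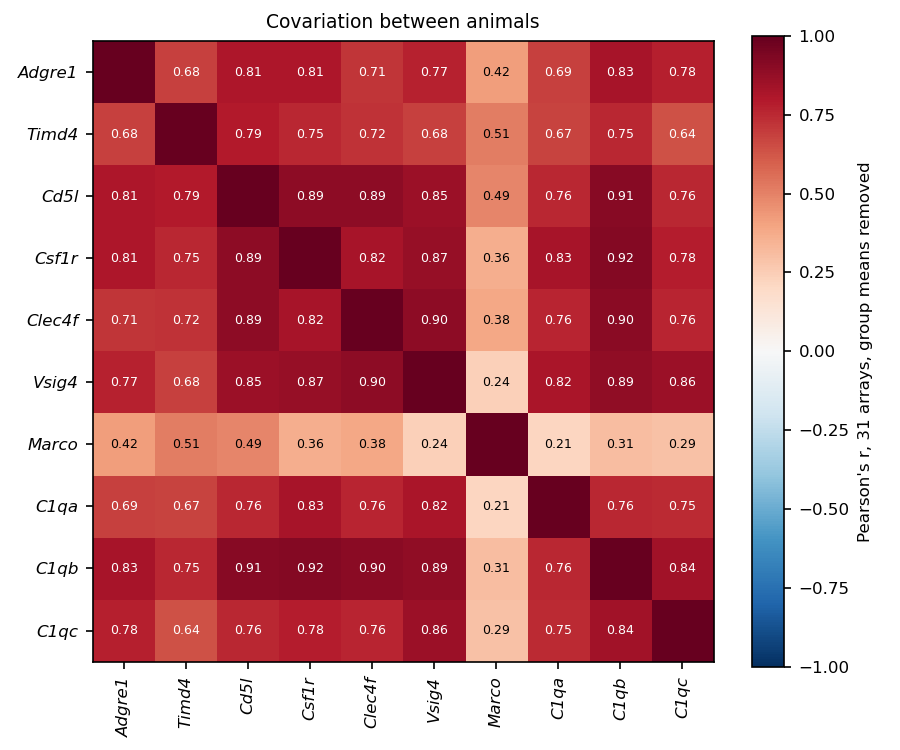
Pearson's r (colour, from -1 to 1, and printed values) for each pair of Kupffer cell genes over 31 arrays with the 4 group means removed. The 36 pairs without Marco lie between 0.64 and 0.92, and the row and column of Marco between 0.21 and 0.51.

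The covariation was present in both states. In the 15 fasted arrays 29 of the 36 pairs without Marco passed, with a median r of 0.77, and in the 16 fed arrays all 36 passed, with a median of 0.83. The 7 fasted pairs that did not pass all held Timd4, whose 8 pairs with genes other than Marco had r of 0.40 to 0.71 in fasted arrays and 0.80 to 0.93 in fed arrays. The 28 pairs without Timd4 and Marco had r of 0.66 to 0.92 in fasted arrays and 0.71 to 0.95 in fed arrays. Whether Timd4's correlations differ between the states was not tested. Without replicate 5 of the fed mice with 2 earlier fasts, Timd4's 8 pairs had r of 0.77 to 0.89 in fed arrays, and the 36 pairs had a median r of 0.76 over the 30 other arrays. The first principal component of the 10 centred and standardised genes held 75.5% of their variance, with loadings of 0.30 to 0.35 for 9 genes and 0.16 for Marco. On 11 of the 31 arrays all 10 genes lay on one side of their group means, below it on 6 and above it on 5.

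Averaged over the 9 genes besides Marco, single animals of a group lay far apart. The lowest, median and highest array means were 4.98, 5.61 and 5.71 in fasted mice with 2 earlier fasts, against 5.10, 5.94 and 6.41 in fed mice with 2. They were 4.91, 5.35 and 5.91 in fasted mice with 0 earlier fasts, against 5.36, 5.98 and 6.68 in fed mice with 0. The range within a group was 0.73 to 1.32, and the SD 0.32 to 0.45. Group means of these array means were 5.45 in fasted and 5.91 in fed mice with 2 earlier fasts. With 0 earlier fasts they were 5.38 in fasted and 6.02 in fed mice. Replicate 5 of the fed mice with 2 earlier fasts had the lowest mean of all fed mice, at 5.10, and the next lowest of its group was 5.83. It had the lowest signal of its group for each of the 9 genes, with the next animal far above it for Cd5l (5.48 against 6.71) and Timd4 (3.68 against 4.56). On that array the mean of 20 pan-macrophage genes was 4.61, the lowest of its group, and the mean of 11 hepatocyte genes was 10.73, the highest of its group. Without it, the falls over both histories were slightly larger, at 0.82 for Adgre1, 0.71 for Timd4, 0.66 for Cd5l and 0.67 for C1qb, and 9 of 10 genes fell.

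Marco shared less of this variation. Its 9 pairs had r of 0.21 to 0.51, with a median of 0.36, and 4 of them passed, those with Timd4 (r = 0.51, rho = 0.45, adjusted p = 0.00553), Cd5l (r = 0.49, rho = 0.59, adjusted p = 0.00354), Adgre1 (r = 0.42, adjusted p = 0.0359) and Clec4f (r = 0.38, adjusted p = 0.0374). Without the 2 arrays farthest from the median of the gene paired with Marco, r was 0.36, 0.51, 0.50 and 0.35 in that order. By rho, 7 of the 9 passed. In fasted arrays 2 of the 9 pairs passed, those with Timd4 and Cd5l, and in fed arrays 0 did. The other genes most like Marco over the 31 centred arrays were Cxcl13, Tmprss11a and Aoah. Cxcl13, a chemokine that attracts B cells, had r = 0.74, and 0.51 without the 2 arrays farthest from the median of Marco. For Tmprss11a, a serine protease gene, these were 0.69 and 0.44, and for Aoah, whose enzyme inactivates bacterial lipopolysaccharide, 0.68 and 0.49. Tmprss11a and Aoah were dim, with means of 1.41 and 2.21 in fasted mice and 1.35 and 2.37 in fed mice. Cxcl13 ran at 4.16, 4.97 and 7.88 in fasted mice and 4.18, 4.87 and 5.79 in fed mice with 2 earlier fasts (lowest, median and highest). The fasted replicate 7 with the highest Marco of that group also had its highest Cxcl13 (7.88), and fasted replicate 7 with 0 earlier fasts likewise (6.65). Fasted replicate 4 with 2 earlier fasts, at 5.82 for Marco, had a Cxcl13 signal of 4.79. Cxcl13 did not pass on fasting (log2 difference 0.44, adjusted p = 0.271).

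**Figure D4:**
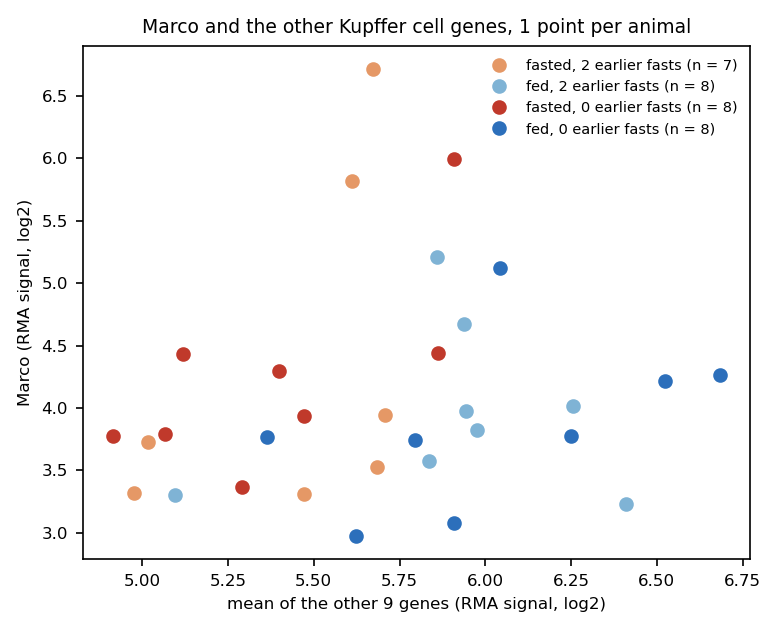
Signal of Marco (log2, vertical axis) against the mean of the other 9 Kupffer cell genes (log2, horizontal axis), 1 point per animal, coloured by group. Fasted animals lie towards the left, and 3 of them, at 5.82 to 6.71, have the highest Marco signals.

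The genes whose centred signals were most like the mean of the 10, standardised gene by gene, included 3 of the macrophage lists described below, Cybb, Ctss and Folr2. Over 31 arrays the 12 highest were Cybb, the catalytic chain of the phagocyte NADPH oxidase (r = 0.92), Adgre4, a relative of F4/80 (0.92), Ctss, the lysosomal protease cathepsin S (0.90), Igsf6 (0.90), Cd300ld (0.87), F8 (0.86), Ly86 (0.86), Tmsb4x, an actin-binding peptide (0.86), Folr2 (0.85), Sdc3, a cell surface proteoglycan (0.84), Slc7a8, an amino acid transporter (0.84) and Cfp (0.83). Of these, 9 fell with fasting over both histories, against 9.36% of all genes called lower. Among the 9, Folr2, a folate receptor of tissue macrophages, differed by -1.36 (SE 0.19, adjusted p = 9.53e-07). Folr2 ran at 4.28, 4.98 and 5.49 in fasted mice, against 4.89, 5.92 and 6.82 in fed mice, with 2 earlier fasts, and at 3.28, 4.45 and 5.44 in fasted mice, against 5.29, 5.98 and 6.84 in fed mice, with 0. In the mice with 0 earlier fasts, the fasted and fed ranges of Folr2 met only at their ends. The Slc7a8 call (-0.61, adjusted p = 0.0363) was lost without any of 11 arrays (adjusted p up to 0.0707), which were fasted replicates 2, 5 and 7 and fed replicates 3, 4, 7 and 8 with 2 earlier fasts, and fasted replicates 1 and 8 and fed replicates 1 and 2 with 0.

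Gene by gene, the closest companions differed. The gene most like Adgre1 was Sdc3 (r = 0.85), that most like Timd4 was Cfp (r = 0.82), and that most like Cd5l was Ctss (r = 0.92). Clec4f was also most like Ctss (r = 0.88), while Csf1r was most like Adgre4 (r = 0.90) and Vsig4 most like Folr2 (r = 0.86). The C1q chains each had another companion, Ly86, whose product MD-1 pairs with a receptor related to TLR4, for C1qa (r = 0.86), F8 for C1qb (r = 0.91) and Igsf6 for C1qc (r = 0.86). These values describe 31 arrays that share 1 normalization, and the order of near companions was not tested.

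For the other 3 of the 12, Igsf6, F8 and Cfp, the fall was not called although their signals followed the Kupffer cell genes from animal to animal. Igsf6, an immunoglobulin-family receptor gene of myeloid cells, ran at 4.90, 5.62 and 6.20 in fasted mice and 4.44, 5.48 and 6.27 in fed mice with 2 earlier fasts, and at 4.75, 5.48 and 5.98 in fasted mice and 4.67, 5.72 and 6.32 in fed mice with 0. Its difference was -0.12 (95% interval -0.45 to 0.22, adjusted p = 0.738). F8, the gene of coagulation factor VIII, which liver sinusoidal endothelium makes, differed by -0.15 (-0.30 to 0.00, adjusted p = 0.196). Cfp, which codes for the complement regulator properdin, differed by -0.11 (-0.37 to 0.14, adjusted p = 0.642). By history, the Cfp difference was 0.13 after 2 earlier fasts and -0.36 with 0 (limma, adjusted p = 0.764 and 0.215). The interval of Igsf6 holds the fall of C1qa and C1qc but not those of Adgre1, Timd4, Vsig4, Clec4f, Cd5l, C1qb or Csf1r, and whether its response differs from theirs was not tested.

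The other genes of Kupffer cell identity did not all follow. Of 14 measured genes of that list, 3 fell and 0 rose over both histories, against 9.36% of all genes called lower. The median difference was -0.17, against -0.00 over all genes. The 3 that fell were Folr2, Id3, a transcriptional inhibitor needed for Kupffer cell development (-0.68, adjusted p = 0.002), and Il18bp, the secreted inhibitor of interleukin-18 (-0.44, adjusted p = 0.00221). Over the 31 centred arrays, r with the mean of the 9 members besides Marco was 0.87 for Folr2, -0.10 for Id3 and 0.54 for Il18bp. Cd163, the haemoglobin scavenger receptor, averaged 4.88 ± 0.40 in fasted mice and 4.87 ± 0.35 in fed mice (log2 difference 0.01, adjusted p = 0.983). Clec1b, a lectin receptor gene, differed by 0.15 (adjusted p = 0.292) and Slc40a1, the iron exporter ferroportin, by -0.16 (adjusted p = 0.157). These 3 were chosen after their values were seen. As a description, the mean of the 14 genes correlated with the mean of the 9 members besides Marco at r = 0.85 over the 31 centred arrays, and the mean of 20 pan-macrophage genes at r = 0.95. The same value was 0.17 for 14 monocyte and neutrophil genes and -0.29 for 11 hepatocyte genes. The monocyte and neutrophil list was dim, with array means of 1.59 to 1.90, which limits how high its r could be. Among the 16 lists so compared the pan-macrophage and Kupffer cell lists gave the highest values for the 9 genes. Next were macrophage activation genes (0.82), efferocytosis and scavenger receptor genes (0.77) and sinusoidal endothelial genes (0.72). Taken gene by gene, the median r in these 3 lists was 0.29, 0.21 and 0.52. It was 0.58 for the pan-macrophage list and 0.54 for the Kupffer cell list. Marco alone correlated with the mean of the pan-macrophage genes at r = 0.42.

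**Figure D5:**
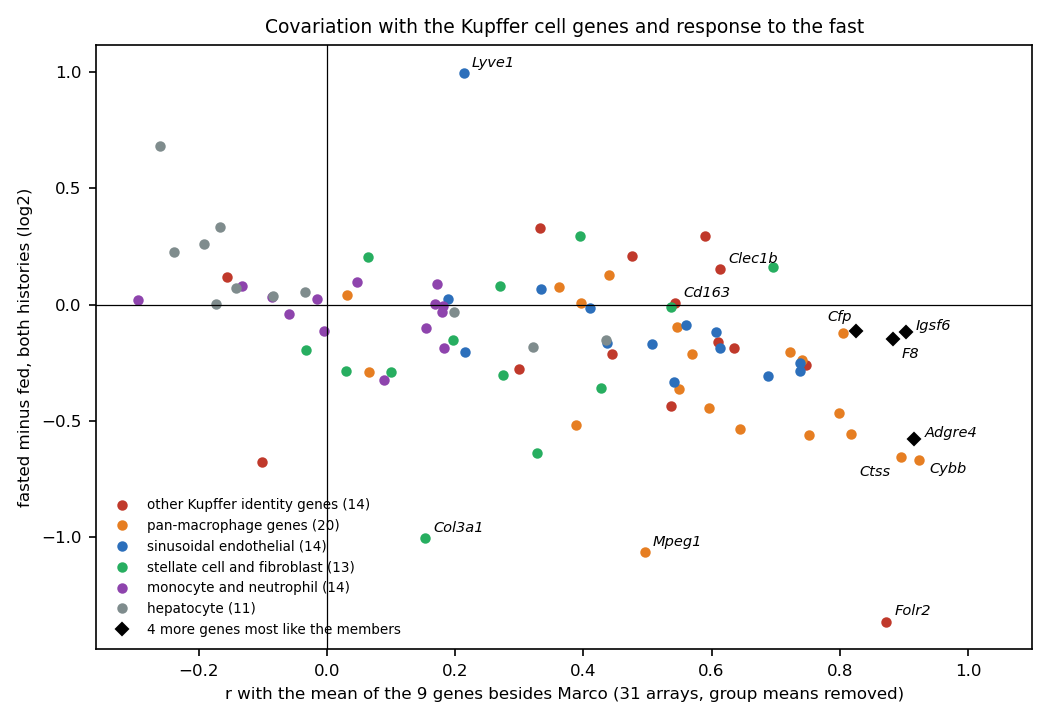
Difference between fasted and fed mice over both histories (log2, vertical axis) against Pearson's r with the mean of the 9 Kupffer cell genes besides Marco (horizontal axis, 31 arrays with group means removed) for genes of 6 cell type lists and 4 more genes most like the members (black diamonds). Igsf6, F8 and Cfp lie far right near a difference of 0, and Folr2 far right at -1.36. The monocyte and neutrophil genes, whose list mean was dim, lie further left, near a difference of 0.

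Of 20 pan-macrophage genes, 11 fell and 0 rose over both histories, with a median of -0.33, against 9.36% of all genes called lower. Mpeg1, the pore-forming perforin-2 gene, averaged 5.61 ± 0.43 in fasted mice and 6.67 ± 0.31 in fed mice and fell by 1.06 (adjusted p = 5.52e-08). Cybb fell by 0.67 (adjusted p = 0.00112), Ctss by 0.66 (adjusted p = 0.000147) and Ptprc, the leukocyte antigen CD45, by 0.56 (adjusted p = 0.000282). The macrophage lineage factors Spi1, which codes for PU.1, and Maf did not pass (log2 differences -0.21 and 0.01, adjusted p = 0.135 and 0.966). Of 13 macrophage transcription factors 3 fell and 2 rose, against 19.1% of all genes called. Bhlhe40 fell by 1.00, Id3 by 0.68 and Irf8 by 0.29, while Cebpb rose by 0.86 and Rxra by 0.21. Over the centred arrays, r of these genes with the mean of the 9 members besides Marco lay between -0.12 for Bhlhe40 and 0.10 for Rxra. Which liver cells carry these changes was not tested. The Irf8 call was lost with the mean of its probe sets (adjusted p = 0.196).

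Some markers of other liver cells were called with fasting too, and their part in the values above was not tested. The counts stand against 19.1% of all genes called and 9.36% called lower. Of 14 sinusoidal endothelial genes 6 fell and 1 rose (median -0.17), with Dnase1l3, a secreted DNase gene (-0.33), Cdh5 (-0.31) and Mrc1 (-0.28) lower and Lyve1 higher by 1.00. The mean of that list ran at 6.32 to 6.74 in fasted mice and 6.45 to 6.98 in fed mice, and it correlated with the 9 members at r = 0.72. Of 13 stellate cell and fibroblast genes 4 fell and 2 rose (median -0.20), among which the collagen gene Col3a1 fell by 1.00 and Lrat, the enzyme that stores vitamin A as ester, by 0.64, while Hand2 rose by 0.29 and Ecm1 by 0.21. Its mean ran at 4.87 to 5.40 in fasted mice and 5.09 to 5.52 in fed mice. Of 10 dendritic cell genes 4 fell and 0 rose, among them the MHC class II genes H2-Ab1 (-1.06), H2-Aa (-0.69) and H2-Eb1 (-0.55), which macrophages also express, with list means of 3.21 to 3.98 in fasted mice and 3.41 to 3.99 in fed mice. Near the 9.36% called lower, 1 of 14 monocyte and neutrophil genes fell, Plac8 (-0.33). The list mean ran at 1.62 to 1.87 in fasted mice and 1.59 to 1.90 in fed mice. Likewise of 12 lymphocyte genes 1 fell, Nkg7 (-0.29), with list means of 1.78 to 2.15 in fasted mice and 1.94 to 2.33 in fed mice. Both list means lay near or below the array medians of 2.01 to 2.07, and a fall could be missed where signals are this dim. Of 11 hepatocyte genes 2 fell and 4 rose, with list means of 10.59 to 10.94 in fasted mice and 10.54 to 10.73 in fed mice. Of 6 cholangiocyte genes limma called 0, at adjusted p of 0.281 or more and with 0 at an unadjusted p under 0.05. List means ran at 2.09 to 2.56 in fasted mice and 2.08 to 2.52 in fed mice, so that list was dim too.

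The pathways around these genes gave mixed counts, again against 19.1% of all genes called. Of 6 genes of CSF1 and IL-34 signalling, Csf1r was the 1 that passed. Its ligand genes Csf1 (-0.05, adjusted p = 0.787) and Il34 (0.05, adjusted p = 0.8) did not pass. Means of this list, Csf1r included, ran at 3.03 to 3.41 in fasted mice and 3.12 to 3.37 in fed mice, so dim genes could hide a change. Besides the C1q chains, 13 of 21 genes of the classical and later complement pathway fell and 0 rose, with a median of -0.20. C1s1, a protease gene of the C1 complex, fell by 0.52 (adjusted p = 0.000796), and the membrane attack genes C8a, C9 and C8b, which hepatocytes make, fell by 0.82, 0.75 and 0.54. Of 18 efferocytosis and scavenger receptor genes, Timd4 and Marco included, 6 fell and 3 rose. The scavenger receptor gene Msr1 fell by 0.56 and Axl, a receptor tyrosine kinase for dying cells, by 0.48, while Cd36, a fatty acid and lipoprotein receptor, rose by 0.95, Pros1, a bridging ligand of that kinase family, by 0.57 and Cd93 by 0.32. Of 8 LXR targets, Cd5l included, 2 fell and 2 rose, with Abca1, a cholesterol exporter, lower by 0.38 and Plin2, a lipid droplet protein, higher by 0.94. Of 20 genes of macrophage activation 3 fell and 2 rose, a share near that over all genes. Il18 fell by 1.18 and Clec7a, the beta-glucan receptor dectin-1, by 0.50. Il1rn, the interleukin-1 receptor antagonist, rose by 0.66 and Arg1, an enzyme that hepatocytes make, by 0.52. Over the centred arrays, r with the 9 members was 0.29 for Il18, 0.67 for Clec7a, 0.10 for Il1rn and -0.10 for Arg1. Tnf (-0.07, adjusted p = 0.633) and Il1b (0.13, adjusted p = 0.709) did not pass. Means of these 20 genes ran low, at 2.76 to 3.07 in fasted mice and 2.78 to 3.13 in fed mice. A change in a dim gene could be missed. Of 13 glucocorticoid-responsive genes 12 rose and 0 fell, and their list mean correlated with the 9 members at r = -0.02 over the centred arrays.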

How the data were processed

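RNA from whole liver was hybridised to 31 arrays, and the authors deposited log2 signals of 41345 probe sets normalized by RMA, per the submitters' processing notes; the version was not given in the sources used here. RMA sets all arrays to one distribution, so a shift shared by most genes cannot be seen. Of the probe sets, 23521 carried 1 gene symbol in the platform annotation, 1814 several and 16010 none, and the probe set with the highest mean stood for each of 22180 genes. The 10 genes, the lists and the tests were chosen with earlier results of these data known. Groups came from the labels. A group-means model over all arrays was fitted with limma 3.58.1 in R 4.3.3 and Benjamini-Hochberg adjustment over all genes for 6 comparisons. Correlations used numpy 2.4.6 and pandas 2.3.3, and figures matplotlib 3.10.9. Scripts were tested on simulated data. Replicate numbers did not pair samples.

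Named genes were all 10 genes, up to 4 called genes of each list with the largest difference, the 12 genes most like the mean of the 10, and the 3 most like each. Rxra, Hand2, Ecm1, Cd93 and list genes given as not passing were named after their values were seen. The lists were 18 with 223 measured entries, and no erythroid gene was measured. Alternatives were the mean of a gene's probe sets, leaving out genes with a mean under 3, quantile normalization, cyclic loess, an intensity trend, robust moderation, only the groups compared, a replicate block and each array left out.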

Additional observations from a re-analysis of the deposited data

Results flagged for a closer look

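Replicate 5 of the fed mice with 2 earlier fasts was set apart from its group by a wide gap for 5 genes. Its signal was 3.678 for Timd4, where the next lowest was 4.56, 5.483 for Cd5l, where the next was 6.71, and 5.3468 for Csf1r, where the next was 5.94. It was 6.1866 for Clec4f, where the next was 6.81, and 5.5191 for C1qb, where the next was 6.77. Replicate 7 of the fasted mice with 0 earlier fasts was set apart for Marco, at 5.9949, where the next highest was 4.44. In all, 6 of 40 groups of values had such a gap by Dixon's test at the 95% level, which chance passes in about 1 in 20 groups, and 5 of the 6 come from 1 array and from genes that move together. Their causes were not tested.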

How the results depend on the processing

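Over both histories, 8 to 9 of the 10 genes fell under the settings that kept all arrays and 7 to 9 with an array left out. With 2 earlier fasts the count was 3 under each setting that kept all arrays and 0 to 4 with an array left out. With 0 earlier fasts it was 6 to 8 and, with an array left out, 3 to 9. The comparisons between histories and the interaction gave 0 under each setting run. With the replicate block the count was 8 over both histories, 3 with 2 earlier fasts and 6 with 0, and C1qc had an adjusted p of 0.0531 over both histories and 0.0648 with 0 earlier fasts. Same-numbered arrays correlated at -0.06 to 0.12 over 45 pairs of arrays, 3 of them over 0.1, so the numbers were not taken as pairs. With 0 earlier fasts the C1qc call was also lost with cyclic loess (adjusted p = 0.0504) and with only the groups compared (0.0511), and C1qb passed without dim genes (0.0351). Of 2320 differences of the 10 genes under alternatives, 2167 kept direction and call, 76 lost the call, 8 gained it and 69 changed sign. The change of sign of a response to the fast was that of Marco with 2 earlier fasts, at -0.0337 without fasted replicate 7 of that history (range with an array left out -0.0337 to 0.538). With an array left out, differences between 2 and 0 earlier fasts that changed sign in fed mice ran at -0.332 to 0.0136 for C1qb, -0.143 to 0.121 for Cd5l, -0.186 to 0.00333 for Clec4f, -0.115 to 0.0654 for Csf1r and -0.0686 to 0.287 for Marco. Those in fasted mice ran at -0.106 to 0.101 for Adgre1, -0.114 to 0.0821 for Clec4f, -0.0952 to 0.039 for Csf1r, -0.312 to 0.333 for Marco, -0.112 to 0.15 for Timd4 and -0.0809 to 0.148 for Vsig4. Interactions that changed sign ran at -0.0377 to 0.129 for C1qa, -0.0211 to 0.175 for Clec4f, -0.11 to 0.0815 for Csf1r and -0.419 to 0.226 for Marco. None of these values passed the test. Of 2312 differences of 61 other genes, 2298 kept both, 13 lost the call and 1 changed sign, Tmprss11a at -0.0012 without that same animal (range -0.0012 to 0.0921). The 13 were 11 of Slc7a8, Irf8 with the mean of its probe sets (adjusted p = 0.196) and Tat with quantile normalization (0.0713). Of the 45 pairs, 38 to 43 passed with an array left out and 41 with cyclic loess. The causes were not tested. The number of animals limits what could be called.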
